A study of Mus musculus with 3 samples.

Results

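The cytochrome P450 genes were followed on 3 arrays of mouse liver. They were taken as every gene on the array whose symbol has the form of a P450 gene name (Cyp, a family number, a subfamily letter and a gene number), without the sterol and bile acid genes Cyp7a1, Cyp8b1, Cyp27a1 and Cyp7b1 and without Cyp4a10 and Cyp4a14. This gave 84 genes read by 103 probes, of 20284 named genes and 55681 probes in all. The livers came from mice of strain c57BL6/J and were taken 2 days after hydrodynamic tail vein injection, in which a large volume pushes plasmid DNA into liver cells. The plasmid carried the human YAP gene, either wild type (WT) or 1 of the mutants 1SA and 2SA. YAP is the coactivator that the Hippo pathway holds in the cytoplasm, and the SA mutants are active forms that escape this. Each group held 1 array.

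Several points limit these livers as a model. Per the study's methods the mice were young adult males, the transgene was driven by a hepatocyte-specific AFP enhancer and minimal albumin promoter in the pLIVE vector, and the injection reaches only a portion of the hepatocytes and itself injures the liver. All groups were injected with a YAP plasmid, so none is an untouched liver. The sources used here do not say whether each array was hybridised with RNA of a single mouse or of several. The title of the WT sample carries the number 2. With 1 array per group, differences have no replicate check and none was tested, and a difference between constructs cannot be told apart from a difference between liver samples.

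P450 enzymes are haem proteins, most of them in the endoplasmic reticulum, that insert an oxygen atom into drugs, steroids, fatty acids and vitamins with electrons passed on by P450 oxidoreductase. Hepatocytes carry most of the body's drug-metabolizing P450. Families 1 to 3 are induced through receptors that sense foreign compounds, namely AhR for family 1 and CAR and PXR for subfamilies 2b, 2c and 3a, family 4 acts mainly on fatty acids under PPAR alpha, and further families make or break down hormones, retinoids and vitamin D.

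Intensities are given as deposited, and differences are of log2 values after each array was scaled to its 75th percentile of intensity (290.8 for WT, 275.7 for 1SA and 319.5 for 2SA). A probe counted as measured where it was well above background. Repeated spots on an array gave a limit of 0.21 for a difference (2 SD), which covers error between spots and not between animals. Each of the 10 hepatocyte marker genes was measured on all 3 arrays. The median difference over the 10 was 0.11 for 1SA minus WT and -0.14 for 2SA minus WT.

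Of the 84 P450 genes, 65 were measured on all 3 arrays, 3 on some (Cyp1b1, Cyp2b13 and Cyp2b19) and 16 on none. The 16 held the steroid synthesis genes Cyp11a1, Cyp11b1, Cyp11b2 and Cyp19a1, the vitamin D genes Cyp24a1 and Cyp27b1, the retinoid gene Cyp26c1, and Cyp2ab1, Cyp2b23, Cyp2c65, Cyp2j11, Cyp2w1, Cyp3a44, Cyp4a29, Cyp4f37 and Cyp4x1. In 1SA against WT, 6 of the 65 P450 genes measured on both were at least 2-fold lower (9.23%, against 1.14% of all genes), namely Cyp2b9, Cyp2c55, Cyp2s1, Cyp4a31, Cyp4a32 and Cyp4f18. None was at least 2-fold higher (all genes 0.739%). In 2SA against WT, none of 67 passed 2-fold in either direction, where 1.15% of all genes were higher and 0.573% lower. Between the mutants, 5 of 66 were at least 2-fold higher in 2SA than in 1SA (7.58%, against 2.49% of all genes), namely Cyp26b1, Cyp2s1, Cyp4a31, Cyp4a32 and Cyp4f18. None was lower (all genes 1.17%). Both comparisons with WT share the WT array, and both comparisons with 1SA share the 1SA array.

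The median of the family lay near 0 in each comparison, and its sign there changed with the scaling. Over the 65 genes the median difference was 0.03 for 1SA minus WT, -0.01 for 2SA minus WT and 0.02 for 2SA minus 1SA, beside -0.00, -0.03 and -0.03 over all 13626 genes measured on the 3 arrays. What differed was the spread. In 1SA minus WT, 33 of the 65 lay within the limit of repeated spots (50.8%, against 65.2% of all genes), and 21 lay below it (32.3%, against 18.9%). In 2SA minus WT, 40 lay within the limit (61.5%, against 65.4%). Asked of each array in turn, 1SA lay below both others by more than the limit for 15 of the 65 genes (23.1%, against 12.2% of all genes) and above both for 10 (15.4%, against 1378 of the 13626 genes). WT lay above both others for 12 (18.5%, against 5.95%) and below both only for Cyp4f14 (all genes 5.05%). For 2SA, 6 lay above both (9.23%, against 10.3%) and 5 below (7.69%, against 11.4%).

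**Figure D1:**
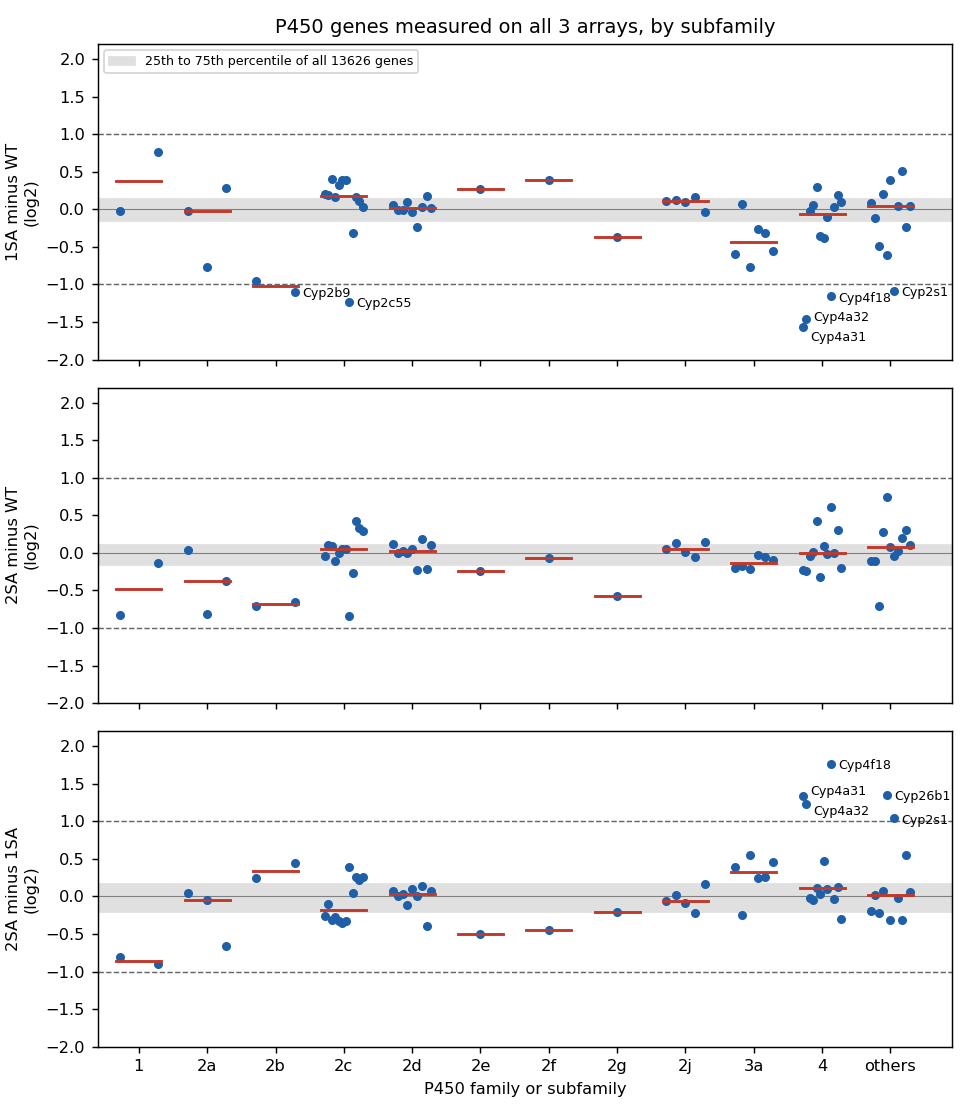
Difference of normalised log2 values for the 65 P450 genes measured on all 3 arrays, by family or subfamily on the x axis and with 1 panel per pair of arrays. Points are genes, red bars medians, dashed lines 2-fold and the grey band the 25th to 75th percentile of all genes. In 1SA minus WT the medians of 2b (-1.02) and 3a (-0.43) lie below the band while 2c (0.18) lies above it.

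The subfamilies that CAR and PXR induce did not move as 1 block. Subfamilies 2b and 3a were lower in 1SA, while most of 2c was slightly higher. Cyp2b10 (NM_009999), the classical target of CAR, read 7897 on WT, 3881 on 1SA and 5315 on 2SA. Both mutants lay below WT, by -0.95 (1SA) and -0.71 (2SA). Its neighbour Cyp2b9 (NM_010000), a female-biased gene that is low in male liver, read 197.4 on WT, 87.4 on 1SA and 137.9 on 2SA. Across arrays it followed the order of Cyp2b10, with differences of -1.10 and -0.65. Normexp background correction, which shrinks differences of dim probes, gave Cyp2b9 -0.65 in 1SA and took it out of the 2-fold count. Of the other 2b genes, Cyp2b23 was not measured. Cyp2b13 (14.0 on WT, 5.55 on 1SA and 19.5 on 2SA) was not well above background on 1SA, and Cyp2b19 (3.28, 13.4 and 14.0) was not well above background on WT, and their bounds did not reach 2-fold.

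In subfamily 3a, 5 of the 6 measured genes were lower in 1SA than in WT, each beyond the limit, with a median of -0.43. In 2SA all 6 lay below WT by little (median -0.13), and Cyp3a25 and Cyp3a57 turned to 0.02 and 0.01 under quantile normalisation. Cyp3a11 (NM_007818), the main drug-metabolizing P450 of mouse liver and the textbook target of PXR, read 138700 on WT, 86740 on 1SA and 132240 on 2SA. Here the 1SA array was the low one, at -0.60 against WT, while 2SA lay at -0.20, within the limit. The other Cyp3a11 probe gave -0.68 and -0.19. Cyp3a16 (NM_007820), a female-biased and fetal form, read 30369, 16926 and 28723 on WT, 1SA and 2SA, which are differences of -0.77 and -0.22. Cyp3a59 (NM_001105160) read 33516, 21669 and 34509, with -0.55 in 1SA and -0.09 in 2SA. Cyp3a25 and Cyp3a57 were lower in 1SA by smaller amounts (-0.27 and -0.31). Cyp3a13, which is also expressed in gut, was the exception at 6972, 6940 and 6779 (0.07 in 1SA, near 0 under normexp, and -0.18 in 2SA). The 3a genes are close paralogs and the files hold no probe sequences, so how far 1 probe reads its neighbours' transcripts is unknown here.

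The promoters of these genes are shown because the genes are the textbook targets of nuclear receptors and because members of 2b and of 3a moved together. RefSeq promoter windows (GRCm38.p6, 250 bases before to 50 after the transcription start) were at hand for 67 of the 84 genes, in 77 windows. Each is printed 5′ to 3′ on the gene's strand, and capitals mark every match, on either strand, to 1 of the 11 motifs searched.
Cyp3a11 (chr5:145879805-145880104, minus strand): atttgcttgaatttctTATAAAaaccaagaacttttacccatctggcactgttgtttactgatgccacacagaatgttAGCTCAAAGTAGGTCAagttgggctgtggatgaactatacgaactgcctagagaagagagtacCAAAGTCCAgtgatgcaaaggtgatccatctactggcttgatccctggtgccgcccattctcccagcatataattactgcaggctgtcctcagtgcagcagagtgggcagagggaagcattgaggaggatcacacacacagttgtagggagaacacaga
Cyp3a16 (chr5:145469674-145469973, minus strand): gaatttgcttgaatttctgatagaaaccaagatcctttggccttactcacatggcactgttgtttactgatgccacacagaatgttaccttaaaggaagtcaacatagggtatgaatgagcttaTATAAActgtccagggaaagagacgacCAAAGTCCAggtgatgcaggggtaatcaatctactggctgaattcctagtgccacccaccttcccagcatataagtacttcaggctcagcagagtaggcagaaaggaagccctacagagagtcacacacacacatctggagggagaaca
Cyp3a59 (chr5:146079008-146079307, plus strand): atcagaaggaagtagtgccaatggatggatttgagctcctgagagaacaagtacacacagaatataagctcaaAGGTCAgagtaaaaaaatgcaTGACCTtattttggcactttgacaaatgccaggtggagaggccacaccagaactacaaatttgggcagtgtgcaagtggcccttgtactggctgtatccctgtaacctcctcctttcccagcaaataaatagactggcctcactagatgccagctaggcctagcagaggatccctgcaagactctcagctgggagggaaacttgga
Cyp2b10 (chr7:25897408-25897707, plus strand): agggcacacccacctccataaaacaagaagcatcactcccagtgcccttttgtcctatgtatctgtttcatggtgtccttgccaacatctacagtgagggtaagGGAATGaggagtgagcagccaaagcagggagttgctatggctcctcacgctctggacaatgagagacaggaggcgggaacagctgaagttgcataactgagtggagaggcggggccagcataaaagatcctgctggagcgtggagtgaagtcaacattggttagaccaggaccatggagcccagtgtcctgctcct
Cyp2b9 (chr7:26173159-26173458, plus strand): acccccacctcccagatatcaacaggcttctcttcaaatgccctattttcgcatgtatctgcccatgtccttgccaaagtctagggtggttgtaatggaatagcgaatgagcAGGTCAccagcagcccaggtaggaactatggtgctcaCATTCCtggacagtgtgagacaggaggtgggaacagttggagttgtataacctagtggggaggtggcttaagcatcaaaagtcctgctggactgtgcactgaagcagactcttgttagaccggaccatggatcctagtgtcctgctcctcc

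The motifs were TATAAA (the core element of many promoters), AGGTCA (the element that nuclear receptors read), AGGNCA repeated after 1 base and AGNNCA repeated after 4 bases (pairs of such elements), CAAAGTCCA (HNF4), TNGCGTG (AhR), GGAATG (TEAD, the DNA-binding partner of YAP), GTTAAT followed after 2 bases by TTAAC (HNF1), TTGCNNCAA (C/EBP), TGTTTGC (FOXA) and TTATGTAA (PAR bZIP). Cyp3a11 held a repeat with 4 bases between, in the single run AGCTCAAAGTAGGTCA that also contains the AGGTCA match, and it shared the HNF4 match with Cyp3a16. Over the 300 bases those promoters were 77.3% identical, and Cyp2b10 and Cyp2b9 were 72.7% identical, while Cyp3a59 was 54.3% identical to Cyp3a11. The HNF4 match stood in 6 of the 77 P450 windows (7.79%) and in 0.475% of all 32851 windows. The matches with 4 bases between stood in 2.60% and 1.85%, those of AGGTCA in 27.3% and 16.3%, and those of TATAAA in 36.4% and 13.6%. GGAATG stood in 14.3% of P450 windows and 14.7% of all. The P450 genes with it were Cyp2b9, Cyp2b10, Cyp2b13, Cyp2b19, Cyp2c38, Cyp2c67, Cyp2d40, Cyp2j6, Cyp2w1 and Cyp19a1. Many of the genes are duplicates of each other, so their promoters are not independent, and a match of letters is not a bound site. A match counted at any place in the window, so a marked TATAAA need not lie where a core element would. Sequence outside the window was not searched.

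Most of subfamily 2c did not share the low 1SA values. Of its 12 measured genes 10 were higher in 1SA than in WT, with a median of 0.18 (0.09 under quantile normalisation, and beside 0.11 for the hepatocyte markers), and the median in 2SA was 0.05. Cyp2c70, the least different of the 10, turned to -0.07 in 1SA under quantile normalisation. Cyp2c50 (47408 on WT, 59148 on 1SA and 53815 on 2SA) and Cyp2c54 (47708, 59213 and 54577) were alike, at 0.40 and 0.39 in 1SA and near 0 in 2SA (0.05 and 0.06). Cyp2c37 read 19151, 23967 and 22441, or 0.40 in 1SA and 0.09 in 2SA. These 3 genes, with Cyp2c39, were highest on the 1SA array beyond the limit. Cyp2c29 (NM_007815) was read by 10 spots on each array, which is the firmest measurement in the family, with an SD of 0.024 for WT, 0.040 for 1SA and 0.036 for 2SA. It read 34162, 37093 and 40223, and the differences of 0.20 and 0.10 lay within the limit set by probes in general. Cyp2c67, Cyp2c68 and Cyp2c70, the last of which makes muricholic bile acids, were highest in 2SA (0.42, 0.33 and 0.29 above WT). The other Cyp2c67 probe gave 0.09. The outlier was Cyp2c55 (NM_028089), a CAR and PXR target that acts on arachidonic acid. It read 1775 on WT, 718.1 on 1SA and 1089 on 2SA, and lay below WT in both mutants, by -1.23 and -0.84. Cyp2c66 was dim (24.4, 18.6 and 22.3), and its 1SA difference of -0.31 turned to 0.02 under normexp.

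**Figure D2:**
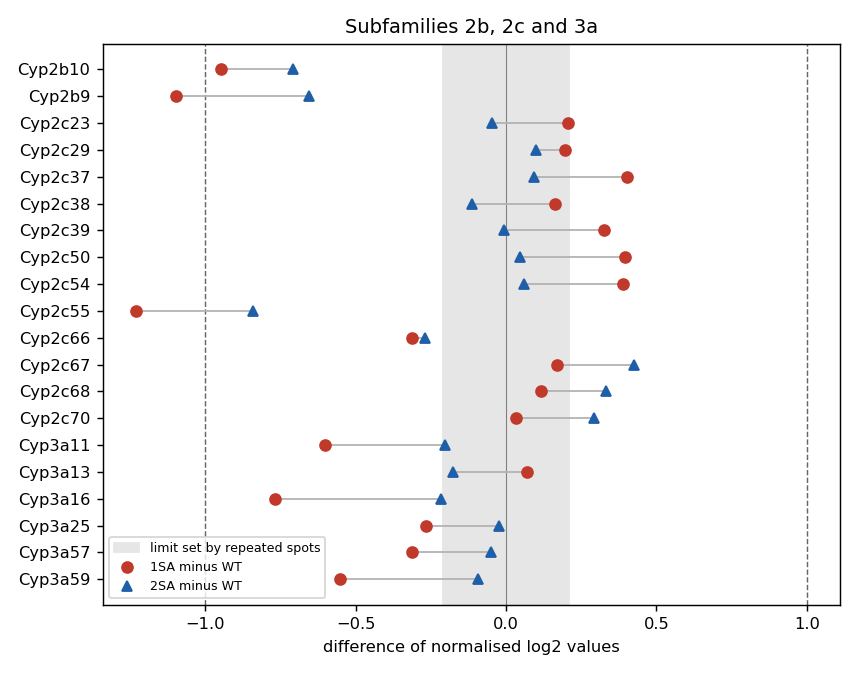
Difference from WT in 1SA (circles) and 2SA (triangles) on the log2 scale for the 20 measured genes of subfamilies 2b, 2c and 3a, with 1 gene per line. The grey band is the limit of 0.21 set by repeated spots and the dashed lines mark 2-fold. Cyp2b9, Cyp2b10 and Cyp2c55 lie left of the band in both mutants, Cyp3a11, Cyp3a16 and Cyp3a59 mainly in 1SA.

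The wider list of CAR and PXR targets held 12 genes, all measured. In 1SA 8 were lower and 4 higher than in WT, and the same counts held in 2SA, with medians of -0.09 and -0.25. Of the members that are not P450 genes, only Alas1 was higher in 1SA than in WT. Only Abcb1a and Ces2a were higher in 2SA than in WT. The drug exporter Abcb1a lay at -0.50 for 1SA and 0.37 for 2SA, the glutathione transferase Gstm3 at -0.08 and -0.81, and the carboxylesterase Ces2a at -0.03 and 0.05. Por lay at -0.50 and -0.90, Alas1 at 0.11 and -0.79, and Abcc3 at -0.11 and -0.29. The receptors themselves read 1798, 1443 and 2068 for Nr1i2, which is PXR (-0.24 in 1SA and 0.07 in 2SA), and 3215, 3359 and 2255 for Nr1i3, which is CAR (0.14 and -0.65).

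In family 4, whose enzymes hydroxylate the far end of fatty acids, 12 of 15 genes were measured and the medians were -0.06 in 1SA and -0.01 in 2SA. The largest differences of all P450 genes were here. Cyp4a31 (NM_201640) read 5904 on WT, 1896 on 1SA and 5531 on 2SA. It was 2.95-fold lower in 1SA than in WT (-1.56), with 2SA at -0.23. Its 3 probes disagreed. The dimmest (381.6, 148.0 and 414.4) gave -1.29 in 1SA, but the one of middle brightness (2440, 2258 and 3150) gave -0.03. With the mean of the 3 probes the 1SA difference was -0.96, short of 2-fold. Cyp4a32 (NM_001100181), read by 1 probe, gave 1834 on WT, 629.7 on 1SA and 1710 on 2SA, or -1.47 and -0.24. These 2 genes are close paralogs of Cyp4a10 and Cyp4a14, so the probes may share transcripts.

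Cyp4f18 (NM_024444), which inactivates leukotriene B4 in neutrophils, gave the widest gap between the mutants. It read 1001 on WT, 425.8 on 1SA and 1679 on 2SA. Against WT it was low in 1SA (-1.16) and high in 2SA (0.61), and it was 3.40-fold higher in 2SA than in 1SA. The 5 measured neutrophil and monocyte markers of 7 had a summed level, in units of each array's 75th percentile, of 127.9 in WT, 125.6 in 1SA and 128.5 in 2SA, nearly all of it from Csf3r (36349, 33320 and 39935). The dimmer markers had no common direction, with S100a8 at 0.23 in 1SA and 0.44 in 2SA, S100a9 at -0.11 and 0.13, Retnlg at -0.27 and -0.66 and Ccr2 at 2.33 and 0.85. The part of these cells in the Cyp4f18 values was not tested. Cyp4f14, which degrades leukotrienes and vitamin E, read 20089, 23498 and 29568, the lowest on WT (0.30 in 1SA and 0.42 in 2SA). Cyp4f16 was lower in 1SA (-0.38, with 0.10 in 2SA), and Cyp4f15 was lower in both (-0.36 and -0.32). The lowest 2SA minus 1SA difference of family 4 was that of Cyp4v3 (21827, 22111 and 20826), at -0.30. The remaining genes, Cyp4b1, Cyp4f13, Cyp4f17 and Cyp4f39, lay within the limit in each comparison, and Cyp4f40 was dim (65.8, 70.9 and 89.5) and 0.31 higher in 2SA than in WT (0.14 under normexp).

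Targets of PPAR alpha outside the excluded genes were lower in 1SA as a group, with 7 of 8 lower and a median of -0.74. In 2SA 5 were lower and 3 higher, with a median of -0.18 (-0.07 with the mean of all measured probes). The list includes Cyp4a31 and Cyp4a32 themselves. Of the members that are not P450 genes, Vnn1, a pantetheinase, stood at -1.25 (1SA) and 0.46 (2SA), and the thioesterase Acot1 at -0.94 and -0.51. The peroxisomal enzyme Ehhadh differed by -0.54 and -0.53, and the fatty acid binding protein Fabp1 by 0.12 and -0.13. The receptor gene Ppara differed by -0.17 and -0.37.

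**Figure D3:**
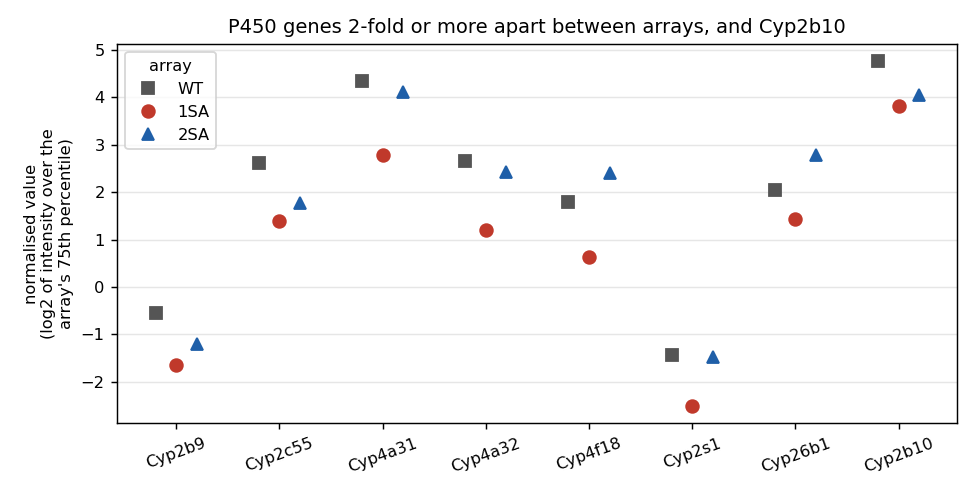
Normalised log2 value on the WT (squares), 1SA (circles) and 2SA (triangles) arrays, 1 array each and so without error bars, for the 7 P450 genes at least 2-fold apart between a pair of arrays that both measured them and for Cyp2b10. Values compare arrays within a gene, not genes with each other, and the 1SA value is the lowest for each of the 8 genes.

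Among genes outside these subfamilies, Cyp26b1 and Cyp2s1 passed 2-fold between arrays that both measured them. Cyp26b1 (NM_175475), which degrades retinoic acid, read 1198 on WT, 745.0 on 1SA and 2202 on 2SA. Against WT it was low in 1SA (-0.61) and high in 2SA (0.74), and it was 2.55-fold higher in 2SA than in 1SA. Its paralog Cyp26a1, the main retinoic acid hydroxylase of hepatocytes, was 4777, 5214 and 6336, or 0.20 and 0.27, and did not share that order. Of the retinoic acid list 5 of 6 genes were measured, and Rarb (0.05 and 0.18) differed little. The stellate cell markers, 6 of 7 measured on all arrays, had summed levels of 39.4, 36.2 and 26.6. Nearly all of that came from the matrix genes Dcn, Col3a1 and Col1a1 (5596, 3158 and 2440 on WT). The part of stellate cells in the Cyp26b1 values was not tested. Cyp2s1 (NM_028775), found mainly in epithelia outside the liver, read 108.1 on WT, 48.4 on 1SA and 115.2 on 2SA. It was low only in 1SA, 2.12-fold below WT (-1.08), and under normexp the difference was -0.63. The 6 bile duct markers were all measured, and 5 were lower in 1SA than in WT, with a median of -0.78. Under normexp that median was -0.17. Their summed levels were 13.2 in WT, 4.37 in 1SA and 10.9 in 2SA, nearly all of it from Spp1 (3536, 1009 and 3132), and the other markers were dim. The bile duct markers moved with the genes that are low in 1SA, and their part in these results was not tested. In whole liver RNA, fewer cells of a type and less RNA per cell cannot be told apart.

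In family 1, whose genes are targets of AhR, Cyp1a1 and Cyp1a2 were lower in 2SA than in 1SA. Cyp1a2 (NM_009993), which metabolizes caffeine and arylamines in pericentral hepatocytes, read 4414 on WT, 7087 on 1SA and 4418 on 2SA. It was high in 1SA alone, by 0.76, with -0.13 in 2SA. Cyp1a1 (NM_009992), nearly silent without an inducer, was dim at 65.5, 61.4 and 40.5, and low in 2SA alone (-0.02 and -0.83, the latter -0.44 under normexp). Cyp1b1, more typical of stromal cells, read 24.7, 11.2 and 22.9, was not well above background on 1SA and was at least 2.10-fold higher in WT and 1.77-fold higher in 2SA than there. Of the 7 AhR targets 5 were measured on all arrays, and all 5 were lower in 2SA than in 1SA, with a median of -0.81 (-0.49 under normexp). The other targets, Cyp1b1 and the AhR repressor Ahrr, were not well above background on 1SA and read higher in 2SA, and with them the median was -0.34. Nqo1, a quinone reductase, stood at 0.37 (1SA) and -0.49 (2SA). Ahr itself read 1998, 2208 and 1586 (0.22 and -0.47), and Tiparp, which feeds back on the receptor, differed by 0.64 and 0.30.

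The bright constitutive genes Cyp2e1, Cyp2f2 and Cyp2a4 were highest in 1SA. Cyp2e1 (NM_021282), which oxidizes ethanol, read 138413 on WT, 157855 on 1SA and 128935 on 2SA, or 0.27 in 1SA and -0.24 in 2SA. The other Cyp2e1 probe gave 0.34 and -0.30. Cyp2f2, a periportal enzyme known for activating naphthalene, read 111588, 138274 and 117387 (0.39 and -0.06). Cyp2a4 (NM_009997), a steroid hydroxylase, read 163847, 188316 and 138428 (0.28 and -0.38). Cyp2a5, nearly identical to Cyp2a4 in sequence, was not analysed here, so that probe may read both. Quantile normalisation reduced the 1SA difference of Cyp2e1 to 0.13, that of Cyp2f2 to 0.24 and that of Cyp2a4 to 0.14. Cyp2a12 (59123, 55429 and 66513) lay near 0 in both (-0.02 and 0.03). Cyp2a22 was dim (76.7, 42.6 and 47.8) and lower in both mutants (-0.77 and -0.82, and -0.39 and -0.53 under normexp). Lower in both as well was Cyp2g1, an enzyme best known from olfactory tissue (800.6, 589.8 and 592.9, or -0.36 and -0.57).

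Hepatocytes near the central vein and near the portal vein carry different P450 enzymes. Of 7 measured pericentral P450 genes 6 were higher in 1SA, with a median of 0.39, and Cyp3a11 was the exception. In 2SA their median was 0.05. Both periportal P450 genes were higher in 1SA too, Cyp2f2 as above and Cyp17a1 within the limit (4910, 4918 and 5001, or 0.08 and -0.11). Of 8 pericentral genes that are not P450 genes, 7 were higher in 1SA and 7 lower in 2SA than in WT, with medians of 0.53 and -0.35. With the stricter filter on dim probes the 2SA median was -0.22. The 8 included the glutamine synthetase Glul (0.45 and -0.10) and the Wnt targets Lgr5 (1.16 and -0.60) and Axin2 (0.48 and -0.84). Both Wnt targets were dim, Lgr5 at 99.0, 209.7 and 71.9 and Axin2 at 34.7, 46.0 and 21.3. The 8 other periportal genes had medians of 0.09 and -0.13.

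Subfamilies 2d and 2j differed little. All 9 genes of 2d were measured, and their medians were 0.02 in both mutants. The 2SA minus 1SA median of 2d was 0.03, but 0.20 under quantile normalisation. The bright Cyp2d11 read 157326, 148313 and 172867 (-0.01 and 0.00). The extremes between the mutants were Cyp2d34 (20911, 20330 and 26059), at 0.15, and Cyp2d40 (10484, 11234 and 9936), at -0.39. Cyp2d26 lay below WT by -0.23 in both. In 2j, 5 of 6 genes were measured, with medians of 0.11 and 0.05, and the extremes between the mutants were Cyp2j9 (333.7, 310.0 and 403.9), at 0.17, and Cyp2j8 (6425, 6832 and 6808), at -0.22. A dimmer probe of Cyp2j13 disagreed with the brighter one in sign in each comparison, over a range of 0.77 in 1SA minus WT.

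The remaining enzymes act on vitamins, sterols and steroids. Cyp2r1, which makes 25-hydroxyvitamin D, read 3368 on WT, 4168 on 1SA and 3903 on 2SA, highest on 1SA (0.38 and 0.08), and its other probe gave 0.63 and 0.26. Cyp2u1, a fatty acid hydroxylase, was dim and likewise highest on 1SA (54.7, 73.7 and 68.9, or 0.51 and 0.20, with 0.25 in 1SA under normexp). Cyp39a1, which hydroxylates an oxysterol, read 855.3, 688.5 and 1165, lower than WT in 1SA (-0.24) but higher in 2SA (0.31). Cyp21a1, the adrenal steroid 21-hydroxylase, gave 4512, 3055 and 3050 on its brighter probe (-0.49 and -0.70) but 27.1, 34.2 and 25.3 on the other (0.41 and -0.23), so its value is uncertain. Of the 7 steroid gland markers, 4 were measured on no array, Hsd3b1 on 1SA alone, and Star and Cyp21a1 on all. Cyp20a1, Cyp2t4 and Cyp46a1 lay within the limit in each comparison.

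Genes with a sex bias in mouse liver were listed because several P450 genes carry one. The median over the 7 male-biased genes was 0.52 for 1SA and 0.31 for 2SA, with 6 of 7 higher in each. Among them Cyp2d9, a testosterone hydroxylase, was flat (47548, 45797 and 56028, or 0.02 and 0.10), while Cyp4a12a differed by 0.52 and 0.26 and the transporter Slco1a1 by 1.03 and 0.60. Of the 11 female-biased genes 5 were measured on all arrays, with medians of -0.24 and -0.22. Cyp2b9, Cyp3a16 and Cyp39a1 were lower in 1SA and Cyp2a4 was higher. Cyp2b13 was measured on WT and 2SA but not on 1SA, and the 1SA median was -0.08 with the stricter filter on dim probes. Bcl6, a repressor of growth hormone signalling in liver that is higher in males, read 544.1, 1184 and 2874. It was higher than WT by 1.20 in 1SA and 2.27 in 2SA.

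The partners that P450 enzymes need were measured without exception, 7 electron transfer genes and 12 genes of haem synthesis and breakdown. Por, the oxidoreductase that feeds electrons to all microsomal P450 enzymes, read 29123 on WT, 19525 on 1SA and 17152 on 2SA. It was lower in both mutants, by -0.50 and -0.90. Cyb5b, a cytochrome b5 of the outer mitochondrial membrane, was high in 1SA (4944, 8213 and 5822, or 0.81 and 0.10). The 7 electron transfer genes were all lower in 2SA than in 1SA, with a median of -0.26 (-0.15 under quantile normalisation). Of the 10 hepatocyte markers 9 were lower there too, with a median of -0.25 (-0.04 under quantile normalisation). Alas1, the rate-limiting enzyme of haem synthesis and itself a CAR and PXR target, was low in 2SA alone (104159, 106554 and 66072, or 0.11 and -0.79). Hmox1, which breaks haem down, read 2452, 1767 and 3251 (-0.40 and 0.27). The 12 haem genes had medians of 0.02 and -0.08.

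Of 27 P450 regulators 25 were measured on all arrays, with medians of 0.00 and -0.04. Foxa2, a factor that keeps liver genes accessible, read 4196, 3718 and 2648 and was low in 2SA (-0.10 and -0.80). Hnf4a differed by 0.27 and -0.12. In the list only Bcl6 passed 2-fold against WT.

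**Figure D4:**
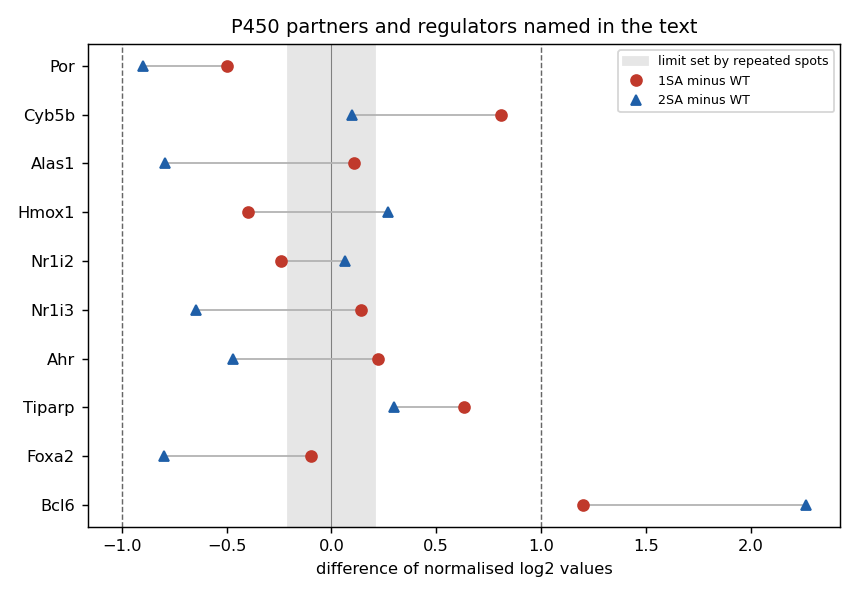
Difference from WT in 1SA (circles) and 2SA (triangles) on the log2 scale for partner and regulator genes of P450 enzymes that were at least 1.5-fold apart between a pair of arrays, and for Por, Nr1i2, Nr1i3 and Ahr. The grey band is the limit of 0.21 and the dashed lines mark 2-fold, and Por, Alas1, Nr1i3, Ahr and Foxa2 lie left of the band in 2SA.

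Markers of other cell types also differed between the arrays. Of 6 red blood cell markers 4 were measured on all arrays, and all 4 were higher in both mutants than in WT. Their medians were 0.67 in 1SA and 0.27 in 2SA, with Hba-a1 at 0.90 and 0.45 and Hbb-bt at 1.01 and 0.53. The part of blood in the differences between the arrays was not tested. Of 9 Kupffer cell markers 7 were lower in each mutant than in WT, with medians of -0.49 and -0.84 (the latter -0.50 with the stricter filter on dim probes) and summed levels of 255.7 in WT, 181.6 in 1SA and 154.8 in 2SA. The brightest on WT were Cd5l (33571, 23734 and 20581) and Marco (15275, 6259 and 5571). The lower markers were not the same in both mutants. Clec4f (0.45 and -1.56) and Vsig4 (0.07 and -0.90) were the exceptions in 1SA. In 2SA the exceptions were C1qa (-0.52 and 0.16) and C1qb (-0.53 and 0.04). Cyp2b10, Cyp2b9, Cyp2c55 and Por were also lower in both mutants, and the part of the Kupffer cells in that was not tested. The 8 markers of sinusoidal endothelium had summed levels of 85.6, 89.4 and 72.3, but their medians were -0.08 in 1SA and -0.11 in 2SA. In each mutant 5 were lower and 3 higher than in WT. The brightest on WT was Clec4g (8356, 8584 and 6086), at -0.59 in 2SA, while Lyve1 (0.37), Pecam1 (0.35) and Stab1 (0.07) were higher in 2SA.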

How the data were processed

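Liver RNA of each group was hybridised to a one-colour Agilent array (Cy3), with the 3 arrays on 1 slide. The deposited intensity, which the authors made with Feature Extraction (version 10.10.1.1), is background-subtracted and was not scaled between arrays. Flags for well above background, saturation and outliers came with it. Per the file headers the design used build mm9. In the authors' series matrix each array's intensity was multiplied by a constant (3.02 for WT, 3.08 for 1SA and 2.81 for 2SA) and served as an alternative.

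Outlier spots were left out, log2 intensities of a probe's spots averaged, and the array's own 75th percentile subtracted on the log2 scale. A probe was measured where at least 50% of its spots were well above background, and measured probes numbered 28972 on WT, 29705 on 1SA and 30784 on 2SA. Accessions matched 26762 probes to symbols of a RefSeq table (GRCm38.p6, used for names and promoters only). Table symbols Cyp2a5, Cyp2c40, Cyp2c69, Cyp2j12 and Cyp2j7 met the name rule without a matched probe. The probe measured on most arrays, then the brightest, stood for a gene. A probe measured on 1 side gave a bound, the bright value over the dim value or, if higher, over the lowest measured signal of the dim array. Members and lists were chosen with earlier results of these data known. Genes were named if at least 2-fold apart between arrays, if their bound reached 2-fold, as extremes of a subfamily between the mutants, as P450 members of the zone, sex and receptor lists, or, for partners and regulators, at 1.5-fold, with Por, Nr1i2, Nr1i3 and Ahr always. Other genes given were chosen after their values were seen, as examples or exceptions. No test between groups was run. The calling steps were tried on simulated arrays with planted changes and error between spots only. That trial held no difference between livers, so it cannot show how far the calls here would repeat. Alternatives were quantile normalisation, the array median, normexp with an offset of 50 on median signal and background (limma 3.58.1, R 4.3.3), the matrix, no filter or a stricter filter on dim probes, the mean of all measured probes and a 3-fold threshold. Python 3.11.15, pandas 2.3.3, numpy 2.4.6 and matplotlib 3.10.9 were used. The number of arrays limits the precision.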

Additional observations from a re-analysis of the deposited data

Results flagged for a closer look

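Of the P450 genes 5 lay beyond the limit of 0.21 on opposite sides of WT in the mutants, as did a family median and a list median, and in each case the difference was not tested. For 3 of the 5 the sides were no longer both beyond the limit under another scaling, as given beside each. Cyp4f18 was 1.77 higher in 2SA than in 1SA (-1.16 and 0.61 against WT), and Cyp26b1 was 1.35 higher (-0.61 and 0.74). Cyp39a1 was 0.55 higher in 2SA (-0.24 and 0.31), with -0.15 in 1SA under normexp and -0.20 under the array median. Cyp2a4 and Cyp2e1 went the other way, with 2SA minus 1SA differences of -0.66 (0.28 and -0.38 against WT) and -0.50 (0.27 and -0.24). Under quantile normalisation Cyp2a4 stood at 0.14 in 1SA and Cyp2e1 at 0.13 in 1SA and -0.17 in 2SA. The median of family 1 was -0.85 for 2SA minus 1SA, with 0.37 and -0.48 against WT, and rests on Cyp1a1 and Cyp1a2, each of which stood apart in 1 mutant alone. The median of the pericentral genes that are not P450 genes was -0.64, with 0.53 and -0.35 against WT (the latter -0.22 with the stricter filter on dim probes).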

How the results depend on the processing

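No paired analysis was possible because there was a single array for each construct. For the same reason no array could be left out and the slide could not enter as a block, and no spot of a P450 gene was saturated. With no filter on dim probes, which lets dim probes enter, the 6 P450 genes lower in 1SA than in WT became 9 (with Cyp1b1, Cyp2b13 and Cyp3a44) and the 5 higher in 2SA than in 1SA became 7 (with Cyp2b13 and Cyp2c65), and 1 was at least 2-fold higher in 1SA than in WT. Under that setting 2SA had 1 gene higher and 2 lower against WT, and 3 lower against 1SA. With the 3-fold threshold, which fewer genes can pass, 0 were lower in 1SA than in WT and 1, Cyp4f18, was higher in 2SA than in 1SA. Under normexp and under the stricter filter both of these counts were 4. With the mean of all measured probes they were 5 and 4, since Cyp4a31 dropped out at -0.96 and 0.96. Under the array median, quantile normalisation and the matrix both counts were as in the report. Beyond the limit, Cyp2c66 in 1SA minus WT was the 1 gene to change sign under the array median, quantile normalisation or normexp. Of 252 subfamily medians 27 moved by more than the SD of a difference (0.10), 8 under quantile normalisation, 7 without the filter, 6 with the stricter filter and 6 under normexp, and the cause was not tested. That of family 1 in 1SA minus WT was -0.02 without the filter and 0.76 with the stricter one, where fewer genes enter.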
